A study of Mus musculus with 36 samples.

Results

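The ethanol response of histone H3 lysine 27 acetylation (H3K27ac) in the dorsal hippocampus was set side by side in mice with a knockdown of Acss2 and in mice with a control vector. For each protein-coding gene, the bases inside H3K27ac peaks within 2.0 kb of either gene end were summed in each group, which is called the cover of the gene here. The ethanol change is the cover in ethanol-treated mice minus the cover in untreated mice, and the difference described throughout is the control change minus the knockdown change. A negative difference therefore means that ethanol came with less added or more lost cover in control than in knockdown mice. The H3K27ac samples number 12 of the 36 in the series, in 4 groups of 3 replicates, and 21887 protein-coding genes were measured.

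All mice were males aged to 8 weeks or more before surgery, and a viral vector was injected into the dorsal hippocampus of each. Knockdown mice received AAV2/9 carrying U6.shACSS2.CMV.EGFP, in which a U6 promoter drives a short hairpin RNA against Acss2 and a CMV promoter drives a green fluorescent protein, and control mice received a control vector. The 4 groups are ethanol-treated knockdown, untreated knockdown, ethanol-treated control and untreated control mice. The ethanol dose was 2 g per kg, injected into the peritoneum as a 20% solution in saline, and the labels name no injection in untreated mice. The labels give neither the strain, nor the time between ethanol and tissue collection, nor the share of hippocampal cells that took up a vector. The authors deposited 1 peak list per group, which the labels of all 3 replicates name, so no value has a replicate error and no test between groups was possible.

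Acetylation of H3 at lysine 27 marks active promoters and enhancers, and it is written by acetyltransferases that use acetyl-CoA. Ethanol is oxidised to acetate, largely in the liver, and ACSS2 is the nuclear and cytosolic enzyme that turns acetate into acetyl-CoA. The hippocampus holds excitatory pyramidal and granule neurons, interneurons, astrocytes, oligodendrocytes, microglia and vessel cells, and a peak list from whole tissue mixes them. The design asks whether ethanol alters acetylation and whether the alteration depends on ACSS2.

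In the knockdown, the H3K27ac lists held 119317 peaks with ethanol and 101690 untreated, and in the control 86110 with ethanol and 89935 untreated. They covered 57.4, 47.8, 38.1 and 40.1 Mb in that order of groups. Median peak widths lay between 272 and 294 bp, and median peak scores, the authors' values read as -log10 q, lay between 6.77 and 6.96. How many reads stand behind a list is unknown, and more reads give longer lists with no change in acetylation, so depth and condition cannot be told apart. Cover in at least 1 list was found at 19 of 20 excitatory neuron markers and 19 of 20 hippocampal subfield markers. It was found at 14955 of all 21887 genes and at 11 of 26 genes of other tissues. Astrocyte markers had cover at 19 of 20 and oligodendrocyte lineage markers at 20 of 22. Other cell types of the tissue had less, with 15 of 22 inhibitory neuron, 14 of 22 endothelial and mural and 9 of 22 microglia and macrophage markers.

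Ethanol came with a gain of peak-covered bases in knockdown mice and a small loss in control mice. Over all protein-coding genes, mean cover was 1139 bp per gene in ethanol-treated knockdown mice and 1035 bp in untreated knockdown mice. In control mice it was 935 bp with ethanol and 954 bp untreated. Of the 21887 genes, 14955 had cover in at least 1 list and 13549 in all 4. Over the 14955, the knockdown change averaged 152 bp (SD over genes 309) and the control change -27.6 bp (SD over genes 281). The difference had a median of -146 bp and ran from -3022 to 2710 bp, with 66.9% of genes below 0 and 33.0% above. These spreads are between genes of the same 4 lists and are no error of a condition.

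A gene was called past the size rule at a difference of 500 bp or more in size. The rule took 2775 genes below 0, 12.7% of all genes, and 557 genes above 0, 2.54% of all genes. Among the 3625 genes with a mean cover of 2000 bp or more over the 4 lists, it took 1161 below 0 (32.0%) and 204 above 0 (5.63%), so a share in a group of genes has to be read beside its cover. The balance of the directions depended on the scaling. When the 4 lists were scaled to equal sums over all genes, the median difference of the genes with cover moved to 9.51 bp, and 1481 genes lay below 0 (6.77%) and 1405 above (6.42%). After that scaling, the shares among genes with a mean of 2000 bp or more were 15.8% below 0 and 17.1% above 0. The shift between the values as deposited and scaled grew with cover. The median difference was -103 bp as deposited and -5.36 bp scaled in genes with a mean cover of 500 to 1000 bp, -144 and 24.5 bp in those of 1000 to 2000 bp, and -455 and 103 bp in those of 4000 to 9000 bp. The medians of gene lists are given relative to that of all genes, which does not remove this dependence on cover, so counts after scaling are given beside those as deposited.

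**Figure D1:**
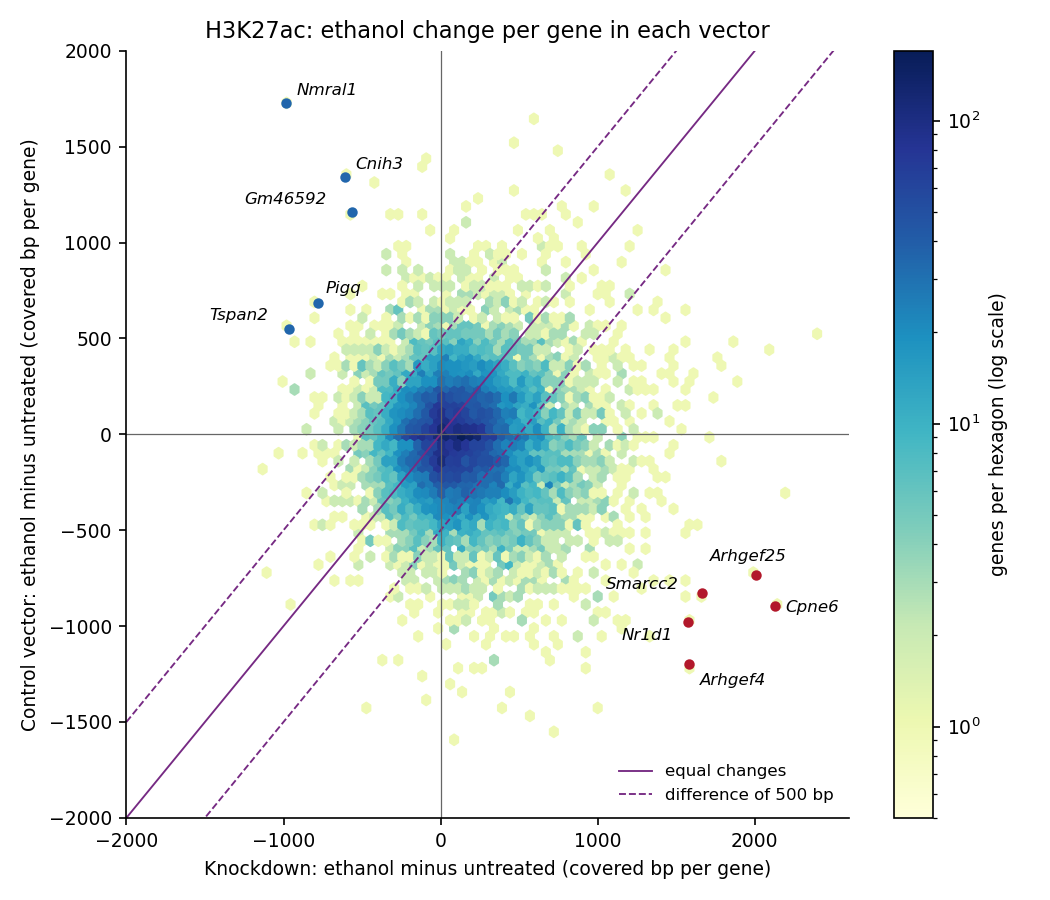
Ethanol change in H3K27ac cover of each of the 14955 genes with cover, in knockdown mice (horizontal axis, bp) and in control mice (vertical axis, bp). Colour gives the genes per hexagon on a log scale, the solid line equal changes and the dashed lines a difference of 500 bp. The cloud is displaced to the right, with a mean knockdown change of 152 bp, and the 10 labelled genes moved by 500 bp or more in opposite directions.

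The added bases in knockdown mice lay mostly away from gene ends. Within 2.0 kb of gene ends, peaks covered 20.7 Mb in ethanol-treated and 18.7 Mb in untreated knockdown mice, and 16.9 Mb in ethanol-treated and 17.3 Mb in untreated control mice. These are changes of 10.3% in the knockdown and -2.12% in the control. Farther inside genes the knockdown values were 26.9 and 21.2 Mb and the control values 15.7 and 16.9 Mb, changes of 26.6% and -6.95%. Outside genes the changes were 26.2% in the knockdown and -6.84% in the control. The gene ends thus hold the smallest relative change of the 3 places in both vectors.

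**Figure D2:**
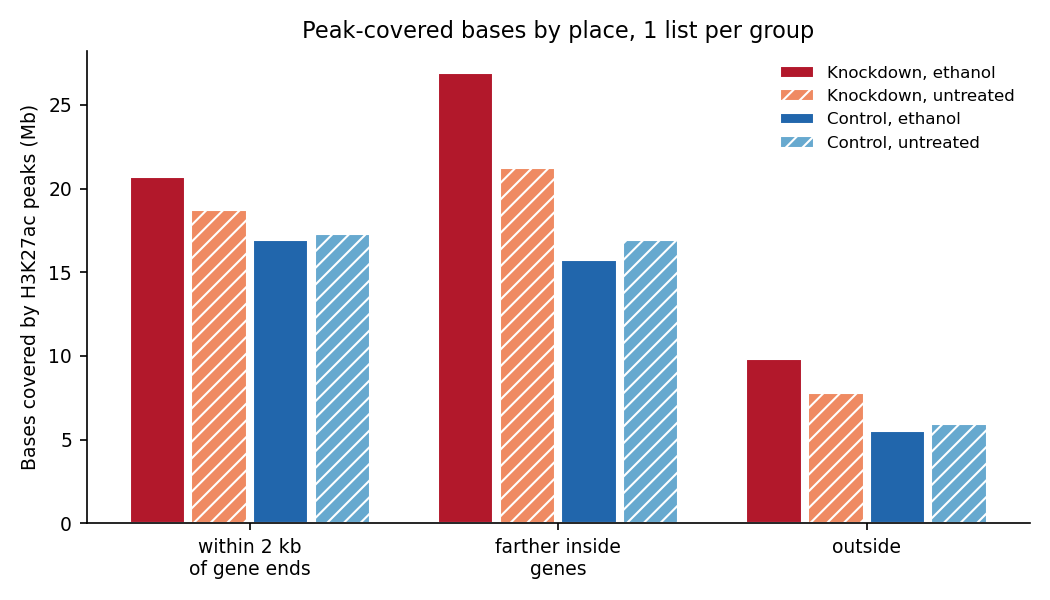
Bases covered by H3K27ac peaks (Mb, vertical axis) in 3 places, with 1 bar for each of the 4 lists. The list of ethanol-treated knockdown mice is the highest in each place, with 20.7, 26.9 and 9.82 Mb.

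Most genes past the size rule moved in opposite directions in the 2 vectors. The rule selects on the difference of the 2 changes, which favours opposite directions, so the shares below are no separate result. Of the 2775 genes below 0, 2370 (85.4%) had a loss in control and a gain in knockdown mice, 305 gained in both and 66 lost in both. Their median change was 483 bp in the knockdown and -292 bp in the control, and in 67.2% of them the knockdown change was the larger, against 49.8% of the 1481 genes below 0 after scaling to equal sums. The list farthest from the median of the 4 was ethanol-treated knockdown in 60.7% of them and ethanol-treated control in 28.6%. Of the 557 genes above 0, 455 (81.7%) had a gain in control and a loss in knockdown mice, with median changes of -285 bp in the knockdown and 415 bp in the control. For these, the farthest list was untreated control in 43.8% and untreated knockdown in 34.5%. As deposited, ethanol-treated lists were thus most often the farthest in genes below 0 and untreated lists in genes above 0. After scaling to equal sums, the shares in genes below 0 were 33.6% for ethanol-treated and 16.2% for untreated knockdown mice, and 29.3% for ethanol-treated and 20.9% for untreated control mice. In genes above 0 they were then 25.0% and 20.6% in the knockdown and 30.2% and 24.3% in the control, so the lead of the untreated lists was not present after scaling. Of the 21887 genes, 190 below 0 and 14 above 0 had changes of 500 bp or more in both vectors and in opposite directions. After scaling to equal sums, 69 genes below 0 and 51 above 0 had such changes, so the excess below 0 was much smaller. Across the 14955 genes, the Pearson correlation of the 2 changes was -0.04, given as a description of points that share their libraries.

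Almost all of these genes had peaks in every group, as did most genes with cover, and their peaks differed in extent. Cover was present in all 4 lists at 94.6% of the genes below 0 and at 92.6% of those above 0. It was present in all 4 at 13549 of the 14955 genes with cover, so this was no particular trait of the genes past the rule. Around the start sites of the 2152 genes below 0 that have one in the RefSeq promoter table, 88.8% of the bases 100 to 200 bp downstream lay in peaks in ethanol-treated and 83.2% in untreated knockdown mice. In control mice the shares were 80.6% with ethanol and 84.7% untreated. That is a difference of -9.80 percentage points. Between 1000 and 1100 bp downstream the shares were 50.7% and 38.4% in ethanol-treated and untreated knockdown mice and 32.5% and 41.2% in ethanol-treated and untreated control mice, a difference of -21.1 points. The difference was thus smaller at the crest just after the start site than about 1 kb downstream. Farthest upstream, where few bases lay in peaks, it was smaller again, at -4.95 points between 2000 and 1900 bp before the start. At the 453 start sites of genes above 0, 50.9% of the last 100 bases before the start lay in peaks with ethanol and 54.9% untreated in the knockdown, and 53.6% with ethanol and 39.5% untreated in the control. The untreated control list thus lay lowest there. The rule chose these genes by the same peak bases, so the order of the lists at them is no separate result. Over all 17492 start sites, the difference was -1.81 points between 100 and 200 bp downstream. It was -3.51 points there between 1000 and 1100 bp downstream.

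**Figure D3:**
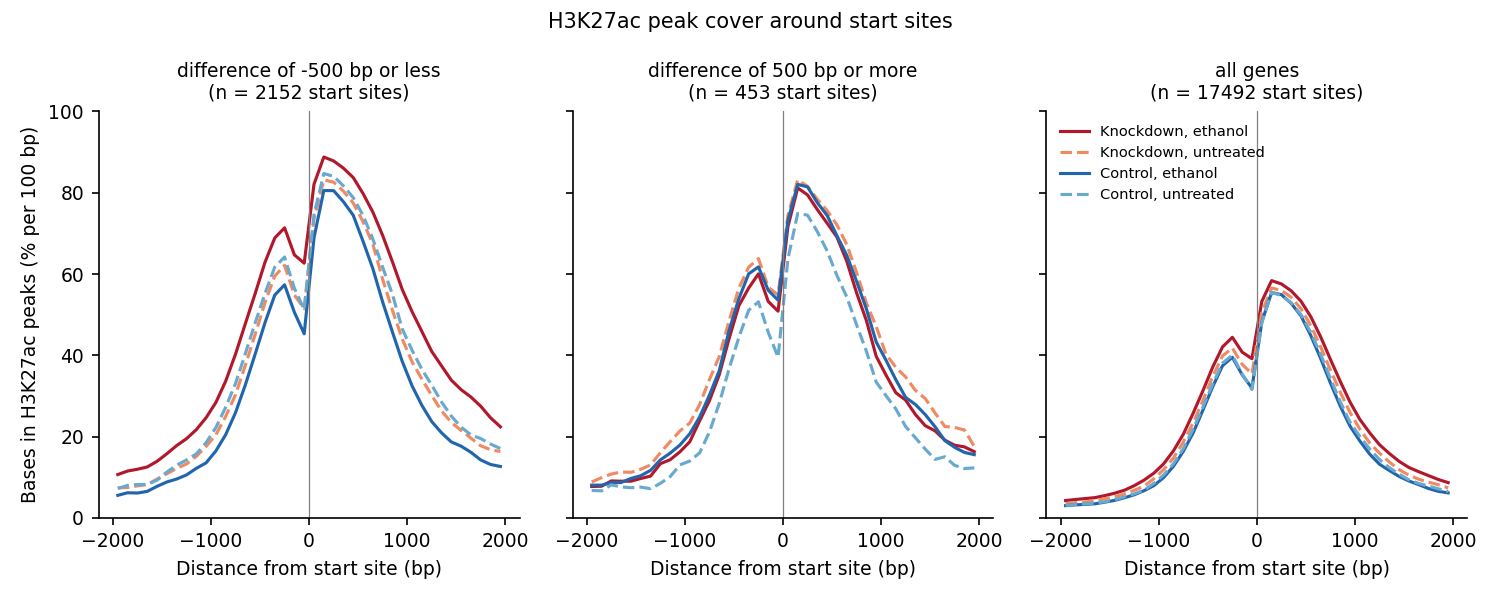
Share of bases in H3K27ac peaks (%, vertical axis) per 100 bp of distance from the start site (bp, horizontal axis), in each of the 4 lists. Left, 2152 genes with a difference of -500 bp or less; middle, 453 genes with a difference of 500 bp or more; right, all 17492 start sites. In the left panel the ethanol-treated knockdown list lies above and the ethanol-treated control list below the untreated lists, and in the middle panel the untreated control list lies lowest.

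As deposited, the mean difference was below 0 at both ends of genes, and the ends were not measured apart after scaling. In the 14059 genes of 4000 bp or more with a known strand, the mean difference was -102 bp at the 5′ end and -33.1 bp at the 3′ end. Cover at the 5′ end averaged 1066 and 986 bp in ethanol-treated and untreated knockdown mice, and 906 and 928 bp in ethanol-treated and untreated control mice. At the 3′ end it averaged 202, 168, 140 and 138 bp in the same order. In the 1949 of these genes past the rule below 0, the means of the difference were -566 bp at the 5′ end and -257 bp at the 3′ end. In the 403 above 0, they were 464 and 253 bp. The rule counts the bases at both ends, so these means of chosen genes are no separate result.

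The gene with the lowest difference of all was Cpne6 (chr14:55510445-55517435, GRCm38), which encodes a copine, a calcium-dependent membrane-binding protein of neurons. It had 4706 covered bp in ethanol-treated and 2580 bp in untreated knockdown mice, and 2130 bp in ethanol-treated and 3026 bp in untreated control mice. Its difference was -3022 bp as deposited and -2572 bp after scaling to equal sums. Ethanol-treated knockdown mice stood far above the other 3 groups, which lay between 2130 and 3026 bp. In that list a single peak of 1899 bp spanned the lower end of the gene, where each of the other lists had 2 separate peaks, of 897 and 770 bp in untreated knockdown, 802 and 807 bp in ethanol-treated control and 837 and 897 bp in untreated control mice. The window of Cpne6 shares bases with those of Carmil3 and Nrl, and the peaks cannot be assigned to a single gene.

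Arhgef4 (chr1:34677949-34812754), an exchange factor that activates small GTPases, had 4997 and 3416 bp in ethanol-treated and untreated knockdown mice and 2227 and 3427 bp in ethanol-treated and untreated control mice, a difference of -2781 bp. The untreated groups of both vectors were nearly equal, and the ethanol-treated groups lay on either side of them. Arhgef4 shares its window with Fam168b. Nr1d1 (chr11:98767932-98775377), which encodes the clock repressor REV-ERB alpha, had 6467 and 4892 bp in ethanol-treated and untreated knockdown mice and 4951 and 5928 bp in ethanol-treated and untreated control mice, a difference of -2552 bp. It shares its window with Thra. Arhgef25, a further exchange factor of small GTPases, had 4972 and 2964 bp against 2665 and 3400 bp in the same order (-2743 bp, window shared with Dtx3 and Slc26a10). Smarcc2, a core subunit of the BAF chromatin remodelling complex, had 4640 and 2977 bp against 2536 and 3365 bp (-2492 bp, shared with Myl6 and Myl6b).

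The promoters of the 4 leading genes that have one in the table are printed to show which letters the peaks did and did not include. They run from 250 bases before to 50 after the start site on the gene's own strand (RefSeq, GRCm38.p6), 5′ to 3′, and capitals mark GGGCGG on either strand, the GC box. Arhgef4 and Nr1d1 have negative differences, and Cnih3 and Gm46592 positive ones.
Arhgef4 (chr1:34677932-34678231, plus strand): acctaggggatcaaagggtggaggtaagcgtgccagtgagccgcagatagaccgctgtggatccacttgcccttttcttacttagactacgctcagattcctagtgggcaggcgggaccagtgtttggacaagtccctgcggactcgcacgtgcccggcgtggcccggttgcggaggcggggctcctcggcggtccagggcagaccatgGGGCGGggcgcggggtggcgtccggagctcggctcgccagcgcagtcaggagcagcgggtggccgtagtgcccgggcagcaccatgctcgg
Nr1d1 (chr11:98775328-98775627, minus strand): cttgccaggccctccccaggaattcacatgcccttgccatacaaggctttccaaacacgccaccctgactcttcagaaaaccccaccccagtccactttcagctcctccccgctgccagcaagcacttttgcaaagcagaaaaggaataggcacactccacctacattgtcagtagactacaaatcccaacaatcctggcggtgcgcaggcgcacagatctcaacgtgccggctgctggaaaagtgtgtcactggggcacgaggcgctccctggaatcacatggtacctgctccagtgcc
Cnih3 (chr1:181352378-181352677, plus strand): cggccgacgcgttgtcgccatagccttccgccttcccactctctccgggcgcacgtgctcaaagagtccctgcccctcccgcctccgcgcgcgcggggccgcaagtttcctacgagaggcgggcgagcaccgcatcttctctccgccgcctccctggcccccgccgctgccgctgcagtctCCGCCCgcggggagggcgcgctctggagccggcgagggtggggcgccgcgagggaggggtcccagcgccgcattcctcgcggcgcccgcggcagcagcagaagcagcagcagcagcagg
Gm46592 (chr17:8347859-8348158, minus strand): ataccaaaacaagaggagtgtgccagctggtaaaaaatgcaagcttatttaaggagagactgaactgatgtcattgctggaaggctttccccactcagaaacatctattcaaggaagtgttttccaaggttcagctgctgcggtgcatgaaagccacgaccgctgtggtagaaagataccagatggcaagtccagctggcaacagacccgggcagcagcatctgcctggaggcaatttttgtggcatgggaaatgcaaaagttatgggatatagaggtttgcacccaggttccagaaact
All 300 bases of the Arhgef4 promoter lay inside peaks in all 4 lists, so its difference came from bases around the promoter and at the other gene end. Of the Nr1d1 promoter, 162 and 110 bases lay in peaks in ethanol-treated and untreated knockdown mice and 107 and 103 in ethanol-treated and untreated control mice. The Cnih3 promoter was wholly inside peaks in all 4 lists, but most of it lay beyond the window counted at that end of the gene. The peak over it measured 2520 and 2406 bp in ethanol-treated and untreated knockdown mice. In ethanol-treated and untreated control mice it measured 1842 and 1615 bp. Most of this peak was therefore not part of the cover or the difference given for Cnih3. Of the Gm46592 promoter, no base lay in a peak in any list, so all cover of that gene lay elsewhere in its window. GC content was 75.3% for Cnih3, 67.3% for Arhgef4, 56.3% for Nr1d1 and 47.7% for Gm46592.

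Med27, a subunit of the Mediator complex that links transcription factors to RNA polymerase II, had 2895 bp in ethanol-treated and 714 bp in untreated knockdown mice, and 1568 and 1869 bp in ethanol-treated and untreated control mice. Its difference was -2482 bp, with ethanol-treated knockdown mice the highest and untreated knockdown mice the lowest of the 4 groups. Its window is shared with no other gene. Limd2, Nudcd3, Wfikkn1 and Eipr1 completed the 10 lowest, with differences of -2408, -2397, -2379 and -2316 bp. Nudcd3, a co-chaperone of dynein, is the only one of these 4 that shares no window, and it had 5221 and 3670 bp in ethanol-treated and untreated knockdown mice and 2272 and 3118 bp in ethanol-treated and untreated control mice. At each of the 10 lowest genes, cover was higher with ethanol in the knockdown and lower with ethanol in the control. Ranking by the difference favours this pattern.

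The highest difference was that of Nmral1 (chr16:4711317-4719356), which encodes an NADPH-binding redox sensor. It had 1936 bp in ethanol-treated and 2918 bp in untreated knockdown mice, and 3569 bp in ethanol-treated and 1841 bp in untreated control mice, a difference of 2710 bp as deposited and 3054 bp scaled. The window is shared with Dnaja3. Peak counts in it ran in the same order, with 4 and 7 in ethanol-treated and untreated knockdown mice and 8 and 3 in ethanol-treated and untreated control mice. The peak at its upper end was present in all 4 groups, with a main peak of 1000, 1190, 1369 and 1190 bp in ethanol-treated knockdown, untreated knockdown, ethanol-treated control and untreated control mice. The smaller peaks near the lower end made up most of the rest.

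Cnih3 (chr1:181350459-181460641), an auxiliary subunit of AMPA-type glutamate receptors, had 2084 and 2691 bp in ethanol-treated and untreated knockdown mice and 2836 and 1496 bp in ethanol-treated and untreated control mice. Its difference was 1947 bp, and its window is shared with no other gene. At its upper end the main peak measured 822 bp in ethanol-treated and 1081 bp in untreated knockdown mice and 1170 bp in ethanol-treated control mice, and untreated control mice had 2 peaks of 287 and 365 bp there. Tspan2, a tetraspanin of oligodendrocytes, had 1564 and 2531 bp in ethanol-treated and untreated knockdown mice and 2247 and 1697 bp in ethanol-treated and untreated control mice (1517 bp). For Gm46592, a predicted gene that shares its window with Prr18, the 4 values were 331, 893, 1157 and 0 bp in the same order (1719 bp). Pigq, an enzyme subunit of glycosylphosphatidylinositol anchor synthesis, had 4411 and 5194 bp against 4617 and 3934 bp (1466 bp, window shared with A930017K11Rik and Nhlrc4). At these 5 genes the control gained and the knockdown lost 500 bp or more. Crybb1, Cdk19, Dnajc7, Apod and Tlnrd1 completed the 10 highest, with differences of 1739, 1535, 1490, 1481 and 1416 bp. Of these, Cdk19, a kinase of the Mediator kinase module, had a knockdown change of -99 bp and a control change of 1436 bp, so its difference was nearly all in the control.

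Acss2, the target of the hairpin (chr2:155518043-155562743), had 1634 and 1614 bp in ethanol-treated and untreated knockdown mice and 1619 and 1389 bp in ethanol-treated and untreated control mice. Its difference of 210 bp is under the size rule, and its window is shared with Ggt7 and Gss. A short hairpin RNA acts on the transcript, so peaks at the gene check neither the knockdown nor the labels.

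Markers of excitatory neurons had the lowest differences among 26 gene lists. Of 20 markers, 12 lay at -500 bp or below and none at 500 bp or above. That is 60%, beside 12.7% of all genes and 32.0% of genes with a mean cover of 2000 bp or more. Mean cover of the 20 was 3113 bp in ethanol-treated and 2712 bp in untreated knockdown mice, and 2233 bp in ethanol-treated and 2603 bp in untreated control mice. The median difference of the 18 members with a mean of 500 bp or more was -1040.5 bp, against -159 bp for all 12772 genes with such a mean. Relative to all genes it was -881.5 bp, and it stayed between -1480 and -388 bp in the 10 settings run, both scalings included. After scaling to equal sums, 10 of the 20 lay at -500 bp or below and 1 at 500 bp or above. The scaled shares of all genes were 6.77% below and 6.42% above. For genes with a mean cover of 2000 bp or more they were 15.8% and 17.1%.

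Neurod1, a neuronal differentiation factor, had 3057 and 2608 bp in ethanol-treated and untreated knockdown mice and 1109 and 2462 bp in ethanol-treated and untreated control mice (-1802 bp). Ethanol-treated control mice lay far below the other 3 groups. Zbtb18 encodes a transcriptional repressor that acts in cortical neuron development. It had 4187 and 4077 bp in ethanol-treated and untreated knockdown mice and 3268 and 4861 bp in ethanol-treated and untreated control mice (-1703 bp). The knockdown values were alike, and the difference lay in the control. Ptk2b, a calcium-dependent tyrosine kinase, had 2916 and 1709 bp against 2024 and 2328 bp in the same order (-1511 bp). Emx1, a homeobox factor of the dorsal forebrain, had 3545 and 2416 bp against 1973 and 2266 bp (-1422 bp). In these 2 genes the larger change was in the knockdown.

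Astrocyte markers came next. Of 20 markers, 10 (50.0%) lay at -500 bp or below and 1, Gpr37l1, at 828 bp. Of all genes, 12.7% lay below and 2.54% above. Among genes with a mean cover of 2000 bp or more, the shares were 32.0% and 5.63%. Mean cover was 2031 and 1640 bp in ethanol-treated and untreated knockdown mice and 1299 and 1454 bp in ethanol-treated and untreated control mice. The median of the 16 members with a mean of 500 bp or more was -622.5 bp, which is -463.5 bp relative to all genes, with a range of -862 to -279.5 bp over the settings run. After scaling to equal sums, 8 of the 20 lay at -500 bp or below and 2 at 500 bp or above. The scaled shares of all genes were 6.77% below and 6.42% above. For genes with a mean of 2000 bp or more they were 15.8% and 17.1%. Sox9, a glial transcription factor, had 2505 and 1372 bp in ethanol-treated and untreated knockdown mice and 1066 and 1541 bp in ethanol-treated and untreated control mice (-1608 bp). Id3, an inhibitor of basic helix-loop-helix factors, had 2766 and 1841 bp against 1768 and 2356 bp in the same order (-1513 bp). Atp1b2, a sodium pump subunit, had 3011 and 2167 bp against 1706 and 1952 bp (-1090 bp). S100b, a calcium-binding protein, had 1787 and 1090 bp against 384 and 805 bp (-1118 bp), but its difference was 1210 bp where the 4 lists were held to a common score minimum, and that of Gpr37l1 was then -665 bp.

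Oligodendrocyte lineage markers stood on the other side of the median. Of 22 markers, 5 (22.7%) lay at 500 bp or above, beside 2.54% of all genes and 5.63% of genes with a mean of 2000 bp or more, and 3 (13.6%) at -500 bp or below. With the lists scaled to equal sums the counts were 7 above and 2 below. The scaled shares of all genes were 6.42% above and 6.77% below. For genes with a mean of 2000 bp or more they were 17.1% and 15.8%. Mean cover was 1462 and 1331 bp in ethanol-treated and untreated knockdown mice and 1643 and 1408 bp in ethanol-treated and untreated control mice. As deposited, mean cover was thus higher with ethanol in both vectors. The same held for several other lists, among them interferon, housekeeping, heat shock and histone acetylation genes. Sox10, the lineage's central transcription factor, had 2085 and 2336 bp in ethanol-treated and untreated knockdown mice and 4209 and 3059 bp in ethanol-treated and untreated control mice (1401 bp). Mag, a myelin-associated glycoprotein, had 1875 and 2112 bp against 2701 and 1962 bp in the same order (976 bp). Ermn, a myelin cytoskeletal protein, had 230 and 396 bp against 941 and 195 bp (912 bp), and Mobp, a structural myelin protein, 422 and 678 bp against 1635 and 1000 bp (891 bp). In all 4 genes ethanol-treated control mice had the most cover. Nkx6-2 lay at 641 bp, while Gpr17, a receptor of immature oligodendrocytes, Sox8 and Opalin lay at -719, -716 and -695 bp. Relative to all genes the list median was 331 bp, but -40.0 bp where a common score minimum was set, at which Sox10 and Mag were also negative, at -781 and -505 bp.

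Of the other cell types, few markers had much cover. A mean of 500 bp or more was found at 6 of 22 inhibitory neuron, 4 of 22 microglia and macrophage, 8 of 22 endothelial and mural and 5 of 16 ependymal and choroid plexus markers. Prox1, a factor of granule cells and of some interneurons, had 3145 and 3790 bp in ethanol-treated and untreated knockdown mice and 3396 and 3079 bp in ethanol-treated and untreated control mice (962 bp). Npy, the interneuron peptide, had no cover in ethanol-treated and 387 bp in untreated knockdown mice, and 304 bp in ethanol-treated and none in untreated control mice (691 bp). Lamp5 and Adarb2 lay at -577 and -559 bp. Of microglial genes, Sall1 lay at -1179 bp and Aif1 at 597 bp, and of vessel genes, Pdgfrb lay at -1021 bp, Foxq1 at -548 bp and Cldn5 at 608 bp. Foxj1, the regulator of motile cilia, lay at -1055 bp, though at 202 bp with the lists scaled to equal totals and at 2029 bp under a common score minimum, and Enkur at -627 bp. Among 20 hippocampal subfield markers, 4 (20.0%) lay at -500 bp or below and Prox1 at 962 bp. The 4 were Sstr4 (-1402 bp), Lef1 (-1212 bp), Mpped1 (-568 bp) and C1ql2 (-535 bp). Their share lay between the 12.7% of all genes and the 32.0% of genes with a mean cover of 2000 bp or more. With the lists scaled to equal sums, 2 of the 20 lay below and 1 above. In a peak list from whole tissue, a change in the share of a cell type and a change of acetylation in its cells cannot be told apart.

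**Figure D4:**
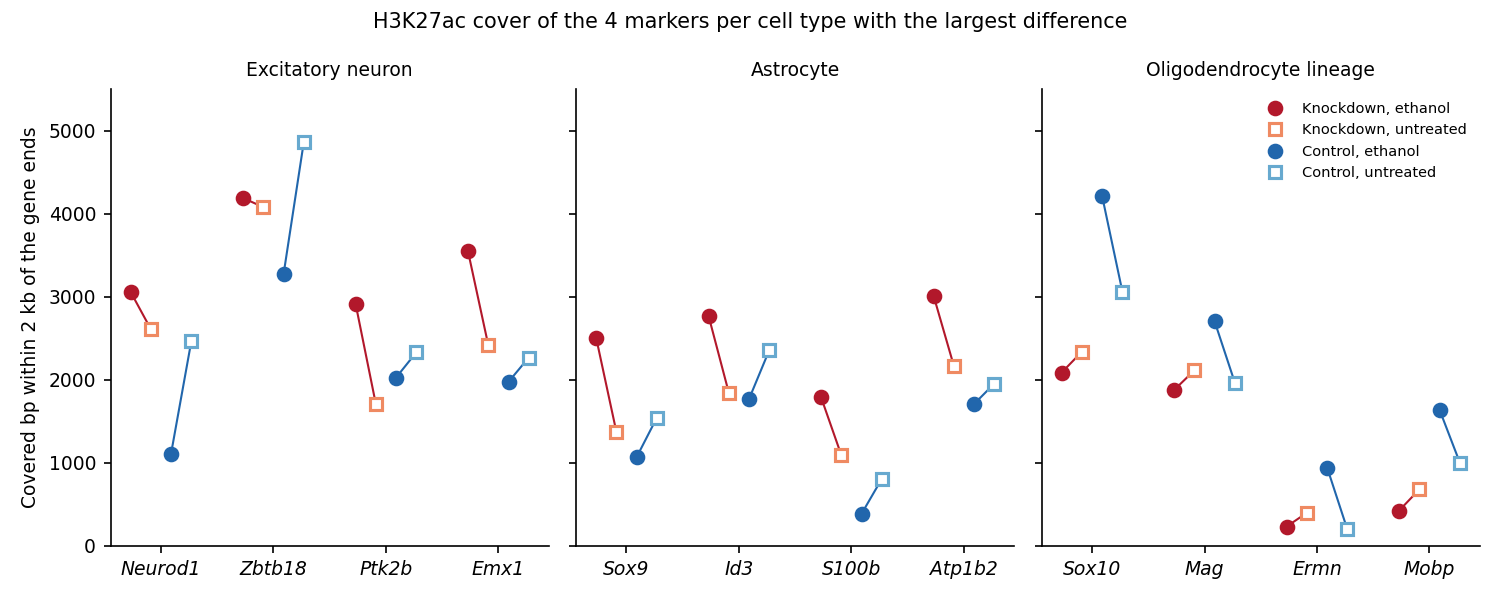
Covered bp within 2.0 kb of the gene ends (vertical axis) in the 4 lists, for the 4 markers of each of 3 cell types with the largest differences. Lines join ethanol (filled circle) and untreated (open square) of a vector. In the 8 neuron and astrocyte markers the knockdown has more and the control less cover with ethanol than untreated, and in the 4 oligodendrocyte markers ethanol-treated control mice are highest.

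Lists of synaptic, signalling, immediate early and clock genes had many members at -500 bp or below as deposited, and fewer after scaling to equal sums. Their shares stand beside 12.7% of all genes and 32.0% of genes with a mean cover of 2000 bp or more, and after scaling beside 6.77% and 15.8%. Of 32 genes of glutamate receptors and the postsynaptic density, 13 (40.6%) lay at -500 bp or below and 2, Shank2 (820 bp) and Grm5 (514 bp), at 500 bp or above. After scaling, 6 lay below and 4 above. Grm2, a presynaptic metabotropic receptor, had 5535 and 4411 bp in ethanol-treated and untreated knockdown mice and 2976 and 3946 bp in ethanol-treated and untreated control mice (-2094 bp). Grin1, the obligate subunit of NMDA receptors, had 6025 and 4760 bp against 3962 and 4663 bp in the same order (-1966 bp). Grin2d, a further NMDA receptor subunit, and Homer2, a scaffold, lay at -1796 and -1502 bp. The list median relative to all genes was -223 bp as deposited, but 40.4 bp with equal sums over genes, 100.4 bp with equal totals and 115 bp among genes that share no window.

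Of 32 genes of presynaptic release, 11 (34.4%) lay at -500 bp or below and 2, Unc13b (1027 bp) and Syn3 (688 bp), at 500 bp or above. After scaling, the counts were 7 and 2. Rab3a, a GTPase of synaptic vesicles, had 5961 and 5093 bp in ethanol-treated and untreated knockdown mice and 4081 and 4803 bp in ethanol-treated and untreated control mice (-1590 bp). Unc13a, a vesicle priming factor, and Syt7, a calcium sensor, lay at -1205 and -1108 bp. Of 30 voltage-gated ion channel genes, 6 lay at -500 bp or below, among them the potassium channel gene Kcnd3 (-1395 bp), and 1, Kcna2, at 560 bp, against 4 and 1 after scaling. The share of presynaptic genes was close to the 32.0% of genes of high cover, and the share of channel genes, 20.0%, was under it.

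Of 30 genes of learning and memory signalling, 13 (43.3%) lay at -500 bp or below and 1 at 500 bp or above, beside 32.0% and 5.63% of genes of high cover. Scaled, 3 lay below and 2 above. Camk2a, the kinase of long-term potentiation, had 4600 and 3986 bp in ethanol-treated and untreated knockdown mice and 2985 and 3495 bp in ethanol-treated and untreated control mice (-1124 bp). Prkaca, a catalytic subunit of protein kinase A, had 3738 and 3593 bp against 3016 and 3975 bp in the same order (-1104 bp), and Prkar1a, a regulatory subunit, 2959 and 2002 bp against 2437 and 2562 bp (-1082 bp). Relative to all genes the median of the list was -341.5 bp, with a range of -1165 to -88.0 bp over the settings run.

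Of 26 immediate early genes, which neurons transcribe within minutes of activity, 10 (38.5%) lay at -500 bp or below and 1, Atf3, at 1066 bp, beside 32.0% and 5.63% of genes of high cover. The balance turned round after scaling, with 6 below and 7 above. Egr4 had 2966 and 2179 bp in ethanol-treated and untreated knockdown mice and 1804 and 2391 bp in ethanol-treated and untreated control mice (-1374 bp). The AP-1 genes Jund, Fosb and Fosl2 lay at -1220, -1166 and -1104 bp. Fosb had 4117 and 3788 bp in ethanol-treated and untreated knockdown mice and 2915 and 3752 bp in ethanol-treated and untreated control mice, with the untreated groups nearly equal. Relative to all genes the list median was -208 bp, but 34.0 bp in windows of 1.0 kb.

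Among 20 circadian clock genes, 9 (45.0%) lay at -500 bp or below, beside 12.7% of all genes and 32.0% of genes of high cover, and 1, Csnk1e, at 617 bp. Once scaled, 5 lay below and 1 above. Besides Nr1d1, these include Cry2, a repressor of the clock loop, with 5402 and 3900 bp in ethanol-treated and untreated knockdown mice and 4807 and 4634 bp in ethanol-treated and untreated control mice (-1329 bp). Ciart, a further repressor, lay at -1147 bp. The list median relative to all genes was -336 bp, with a range of -876 to -125 bp over the settings run. The hour at which tissue was collected is not given in the labels, and its part in this list was not tested.

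**Figure D5:**
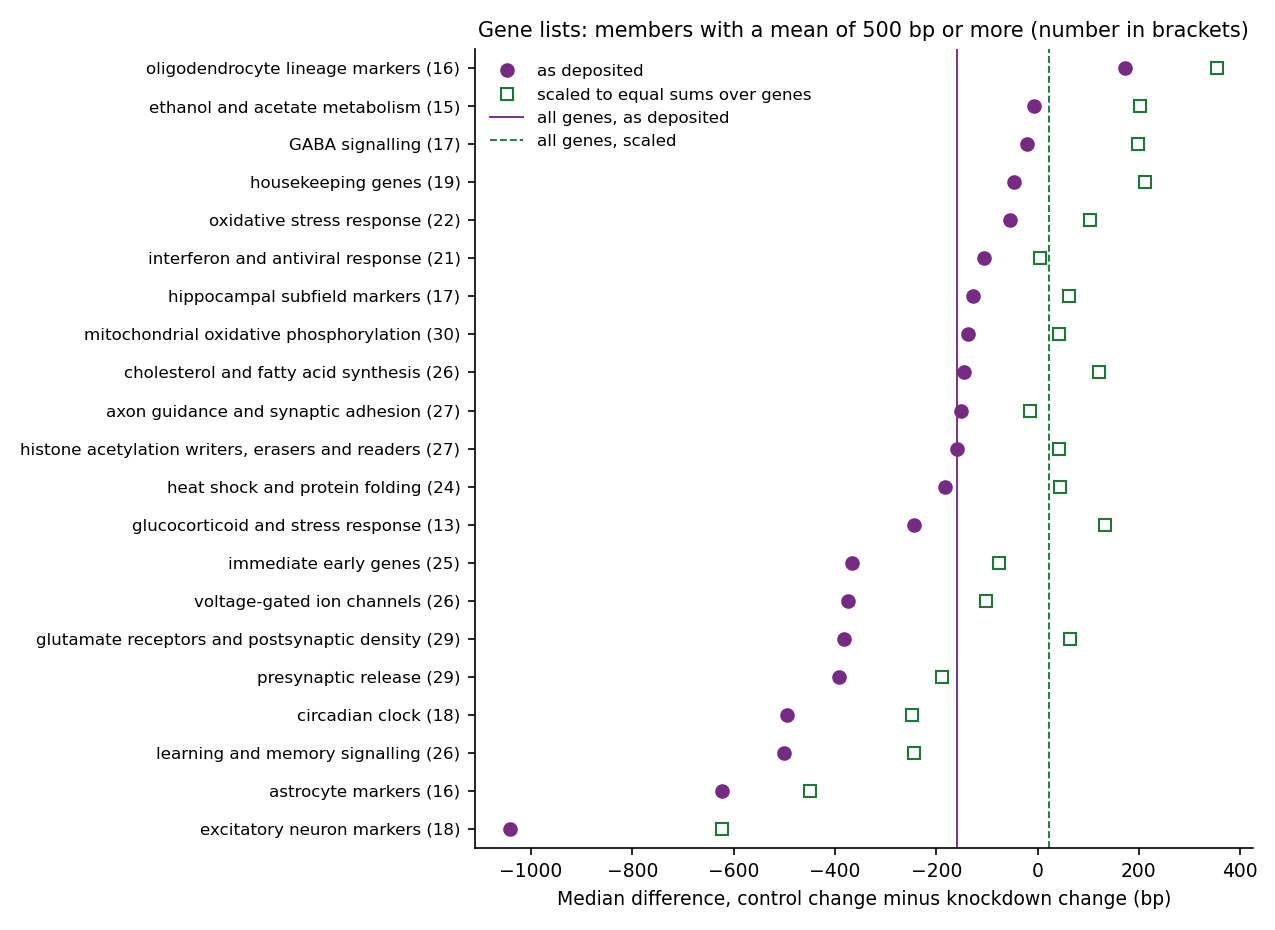
Median difference of each gene list (horizontal axis, bp) over members with a mean cover of 500 bp or more, as deposited (circles) and after scaling to equal sums over genes (squares), for the 21 lists with 10 or more such members. Lines mark the medians of all such genes, -159 bp as deposited and 22.8 bp scaled. Excitatory neuron and astrocyte markers lie lowest and oligodendrocyte lineage markers highest in both.

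Genes of ethanol and acetate metabolism had a median difference near 0 as deposited. Of 24, 19 had cover in at least 1 list, with 11 below 0 and 8 above. The median of the 15 with a mean of 500 bp or more was -6.0 bp, against -159 bp for all such genes. None of 24 lay at -500 bp or below, beside 12.7% of all genes, and 2 (8.33%) lay at 500 bp or above, beside 2.54%. After scaling to equal sums the counts were 0 and 3, beside 6.77% and 6.42% of all genes. The median of the 15 was then 201 bp, against 22.8 bp for all genes with such a mean. Aldh2, the mitochondrial dehydrogenase that turns acetaldehyde into acetate, had 1526 and 2560 bp in ethanol-treated and untreated knockdown mice and 1901 and 2002 bp in ethanol-treated and untreated control mice (933 bp). Cat, the catalase that oxidises ethanol in brain, had 1491 and 1985 bp against 1822 and 1385 bp in the same order (931 bp). In Aldh2 the difference lay in the knockdown, where untreated mice were highest, and in Cat it lay in both vectors. Of 30 writers, erasers and readers of histone acetylation, 5 (16.7%) lay at -500 bp or below, near the 12.7% of all genes, and none at 500 bp or above. After scaling to equal sums, 1 lay below and 2 above. Brd2, a bromodomain reader, had 3432 and 3089 bp in ethanol-treated and untreated knockdown mice and 2896 and 3503 bp in ethanol-treated and untreated control mice (-950 bp). Hdac10, Hdac5, Crebbp and Kat6b lay just past the rule, between -521 and -503 bp, and the first 2 and Kat6b were above 0 with the lists scaled to equal totals.

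In each of the remaining lists, 28.1% of members or fewer lay at -500 bp or below, beside 12.7% of all genes and 32.0% of genes of high cover. After scaling to equal sums, each had at most 2 members below and at most 4 above. GABA signalling genes had 2 of 22 at -500 bp or below, Nlgn2 (-1023 bp) and Gabra2 (-771 bp), and 1 at 500 bp or above, Gabbr2 (590 bp). Heat shock and protein folding genes had 3 of 26 below and 2 above. Among them Hsp90ab1, the constitutive cytosolic HSP90, had 4184 and 3004 bp in ethanol-treated and untreated knockdown mice and 2865 and 3297 bp in ethanol-treated and untreated control mice (-1612 bp). Hspa8 and Hspa1b lay at -1196 and -554 bp, and Hsp90aa1 and Hspa2 at 533 and 528 bp. Glucocorticoid and stress response genes had Errfi1 (-686 bp) and Tsc22d3 (-653 bp) below and Klf9 (1014 bp) above, of 20. Cholesterol and fatty acid synthesis genes had 3 of 29 below, among them Scd2 (-893 bp) and Mvk (-543 bp), and 1 above, the fatty acid desaturase Scd1 (1096 bp). Oxidative stress response genes had 7 of 25 below, led by Sod3 (-884 bp), Gclm (-836 bp) and Gstm1 (-744 bp), and 1 above, Gpx4, the lipid peroxide reductase (1109 bp). Axon guidance and synaptic adhesion genes had 9 of 32 below, led by Efna5 (-1095 bp), Unc5c (-796 bp) and Slit3 (-656 bp), and 1 above, Nrxn2 (543 bp), but 1 below and 2 above after scaling. Interferon genes had Tlr3 (-549 bp) and Ifit1 (-546 bp) below, of 28, and oxidative phosphorylation genes had 4 of 32 below, among them Atp5b (-731 bp), Ndufa4 (-724 bp) and Sdhb (-606 bp), with none above in either list. Housekeeping genes had Rpl13a (-967 bp), Polr2a (-913 bp) and Rps18 (-653 bp) below and Rab7 (655 bp) above, of 20. Genes of other tissues, most of which had no peak, had Apoa2 (-847 bp), Myh7 (-726 bp) and Krt1 (-609 bp) below, of 26, each with cover in all 4 groups.

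Peaks that were present or absent in a crossed way were few. Merging the peaks of the 4 lists gave 149468 regions, of which 40548 (27.1%) were in all 4 lists. The pattern of a loss with ethanol in control and a gain in the knockdown, that is a region in ethanol-treated knockdown and untreated control mice only, was found at 5088 regions (3.40%). The reverse, a region in untreated knockdown and ethanol-treated control mice only, was found at 2281 (1.53%). Both kinds were small, with median widths of 297 and 280 bp against 915 bp for regions in all 4 lists, and weak, with median scores at percentiles 30.5 of the knockdown and 26.1 of the control list for the more frequent kind and 21.7 and 25.0 for the other. At gene ends, within 1.0 kb, they made up 339 and 167 of 20701 regions. Regions in ethanol-treated knockdown mice alone numbered 31298, and those missing in ethanol-treated control mice alone 7087.

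Among the crossed regions at gene ends, the strongest in ethanol-treated knockdown and untreated control mice lay at Fbxw9, Ap1s2, Npr3, Speg and Jpt1. The region at Npr3, the natriuretic peptide clearance receptor, spans chr15:11906526-11907296, and its lower score stood at percentile 67.4 of its list. The strongest in untreated knockdown and ethanol-treated control mice lay at Celsr3, at Dusp10 together with 1700056E22Rik, and at Golga3, Npy and Calm3. The region at Npy spans chr6:49822573-49822959 and accounts for the pattern of that gene given above. Its lower score stood at percentile 45.7, below the middle of the list.

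H3K9ac, a second acetylation mark measured in 12 further samples of the same 4 groups, was set beside these genes. It was not used to choose them, but its peaks may have been called against the same inputs. Over the 14955 genes with H3K27ac cover, mean H3K9ac cover was 1304 and 1222 bp in ethanol-treated and untreated knockdown mice and 982 and 1265 bp in ethanol-treated and untreated control mice. The H3K9ac difference had a median of -300 bp, and 4883 genes lay at -500 bp or below (22.3% of all genes) and 140 at 500 bp or above (0.640%). In the 2775 genes with H3K27ac differences of -500 bp or less the H3K9ac median was -450 bp, and in the 190 with opposite changes of 500 bp or more it was -666.5 bp. Genes with a mean H3K27ac cover of 2000 bp or more, whatever their difference, had an H3K9ac median of -554 bp, so the median of the 2775 genes was not below that of genes of high cover. In the 557 genes with H3K27ac differences of 500 bp or more it was -316 bp, close to that of all genes. After scaling the H3K9ac lists to equal sums, the medians were -41.2 bp for the 2775 genes, -182 bp for the 190 genes and 0.0 bp for the 557 genes, against 72.2 bp for genes of high cover and 0.0 bp for all genes with cover.

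Single genes differed between the marks. H3K9ac differences were -1574 bp for Cpne6, -770 bp for Arhgef4, -839 bp for Nr1d1, -626 bp for Arhgef25 and -2206 bp for Smarcc2, all of the same sign as for H3K27ac. For Nmral1 and Tspan2 they were -885 and -802 bp, opposite to H3K27ac, and for Cnih3 -111 bp. Sox10 had an H3K9ac difference of -1667 bp and Mag one of -505 bp, where the H3K27ac differences were 1401 and 976 bp. Grin1 and Grm2 had -2568 and -2060 bp in H3K9ac, the same sign as in H3K27ac. Of the other genes among the 10 highest in H3K27ac, Dnajc7, Pigq and Apod had H3K9ac differences of -1146, -697 and -562 bp. Cdk19, Crybb1 and Tlnrd1 had 347, 177 and 48 bp, and Gm46592 had no H3K9ac cover in any group. Of the other genes among the 10 lowest, Limd2, Wfikkn1, Med27 and Eipr1 lay between -1111 and -484 bp in H3K9ac and Nudcd3 at 51 bp. The median over genes with cover was itself -300 bp.

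Promoter composition of the genes past the rule was near that of all genes with cover. The median ratio of observed to expected CpG was 0.743 in 2152 promoters of genes below 0, 0.701 in 453 promoters of genes above 0 and 0.740 in 11929 promoters of genes with cover. GC content was 61.3%, 61.3% and 60.7% in the same order. The GC box GGGCGG, searched on both strands, was in 65.6% of promoters below 0, 62.7% above 0 and 62.5% of those with cover, against 46.3% of all 17492 promoters of this length. TGACGTCA, the full cyclic AMP response element, was in 2.70%, 2.65% and 3.06%, against 2.33% of all. TGACTCA or TGAGTCA, the AP-1 site, was in 2.93%, 3.09% and 3.45%, against 4.56% of all, and TATAAA was in 5.90%, 6.84% and 7.38%, against 13.3% of all. No word in its letters overlaps another in this search by containing it. A word is a description of letters, and the shares differed little between the groups of genes with cover.

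Genes close to a neighbour were frequent among those past the rule. Windows shared bases with another protein-coding gene in 55.8% of genes below 0 and 60.9% above 0, against 42.4% of all genes, so some peaks count for more than 1 gene. All genes include 6932 with no cover in any list, which cannot pass the rule. The share among genes with cover was not counted, so the higher shares may go with having cover. Among genes that share no window, 1226 lay at -500 bp or below and 218 at 500 bp or above. As deposited, the median difference of genes with cover was below 0 on each of the 19 autosomes. It lay between -169 bp on chromosome 11 and -88 bp on chromosome 16, and at -192 bp on X. With the lists scaled to equal sums, autosome medians ran from -19.9 bp on chromosome 18 to 71.8 bp on chromosome 16. Most autosomes were then above 0, and X was at -94.1 bp, so the sign on most autosomes depended on the scaling.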

How the data were processed

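ChIP-seq for H3K27ac and H3K9ac and input chromatin was carried out on dorsal hippocampus. Each sample's label gave its group. For every mark and group there is 1 deposited peak list. Tools named in the submitters' processing notes, without their roles, are MACS2, bedtools, STAR 2.5.2a and bcl2fastq, with the build GRCm38 (mm10). Per the labels, peaks against input passed a false discovery rate of 0.001. The deposited score has a minimum of 3.00 and was therefore taken for -log10 q, the authors' value. It grows with depth and served only to order peaks or to set a minimum. How replicates were combined, and the reads behind a list, are not given in the sources used here. The other deposited columns are peak starts and ends, converted to 1-based positions.

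Gene ends came from the RefSeq gene table (GRCm38.p6, 21887 protein-coding genes on 19 autosomes, X and Y). Bases in merged peaks within 2.0 kb of either end were counted once per gene, and peaks off these chromosomes, 163 to 196 per H3K27ac list, were left out. With 1 list per group no test was made. The size rule was 500 bp. Promoters were found for 17492 genes. Python 3.11.15, numpy 2.4.6, pandas 2.3.3 and matplotlib 3.10.9 were used, and the counting was tested on simulated peaks.

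Genes, lists and alternatives were chosen with earlier results of these data known. Named are the 10 highest and 10 lowest differences, the 5 largest in each direction with opposite changes of 500 bp or more, up to 4 members per list with the largest differences, and Acss2. Members named beyond these (Gpr17, Sox8, Opalin, Nkx6-2, Gpr37l1, Csnk1e, Shank2, Grm5, Atf3, Unc13b, Syn3, Kcna2, Hspa2, Nrxn2 and Kat6b) and the 5 strongest crossed regions of each kind at gene ends were chosen after their values were seen. Some members that these rules name are not reported here. Of the 26 lists every gene was matched except 2 of the 30 interferon genes, which the table gives as pseudogenes. Alternatives were other windows (1.0 kb, 5.0 kb, whole genes), lists of equal length (86110 peaks each), a common score minimum of 6.96, 2 scalings, unshared windows, a size rule of 1000 bp, peaks merged within 500 bp, and chromosomes X and Y left out.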

Additional observations from a re-analysis of the deposited data

Results flagged for a closer look

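At 190 genes below 0 and 14 genes above 0, of 21887, cover changed by 500 bp or more with ethanol in the knockdown and by 500 bp or more in the opposite direction in the control. After scaling to equal sums over genes the counts were 69 below 0 and 51 above 0, so their imbalance depended on the scaling. With 1 list per group the difference was not tested. The 5 largest on the negative side had a control change minus knockdown change of -3022 bp (Cpne6), -2781 bp (Arhgef4), -2743 bp (Arhgef25), -2552 bp (Nr1d1) and -2492 bp (Smarcc2). The 5 largest on the positive side had 2710 bp (Nmral1), 1947 bp (Cnih3), 1719 bp (Gm46592), 1517 bp (Tspan2) and 1466 bp (Pigq). Each of these 10 was also past 500 bp with the lists scaled to equal sums over genes, between -2572 and -1899 bp on the negative side and between 1724 and 3054 bp on the positive side. Of the 10, Cnih3 and Tspan2 share their windows with no other gene.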

How the results depend on the processing

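The median difference was -146 bp. It was -93.0 bp in windows of 1.0 kb and -245 bp over whole genes, and it was reversed, to 153.8 bp, with the lists scaled to equal totals and to 9.50 bp with equal sums over genes, a scaling added after seeing the data. Likewise, the median of genes with a mean of 500 bp or more became 191.7 bp and 23.3 bp, with the mean taken from the scaled values. The 5 other settings kept it below 0, between -202 and -113 bp. Genes at -500 bp or below numbered 2775. They were 1352 in windows of 1.0 kb, 4318 in windows of 5.0 kb, 5261 over whole genes, 786 with equal totals, 1226 with unshared windows, 621 at a rule of 1000 bp and 1481 with equal sums. Genes at 500 bp or above numbered 557. They were 316 in windows of 1.0 kb, 954 under the common score minimum, 2940 with equal totals, 218 with unshared windows, 63 at a rule of 1000 bp and 1405 with equal sums.

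The H3K9ac median of the genes below 0 was 150 bp under that of all genes with cover. The gap was -87.0 bp in windows of 1.0 kb, -257 bp over whole genes, -278 bp at a rule of 1000 bp and -83.0 bp with equal sums. For genes above 0 the gap of -16.0 bp became -83.0 bp in windows of 5.0 kb, 52.0 bp in lists of equal length, 122.8 bp with equal totals, 72.0 bp with unshared windows, 90.0 bp at a rule of 1000 bp and 35.7 bp with equal sums. The CpG ratio of genes below 0 minus that of genes with cover was 0.0034, and it became -0.0318 in windows of 1.0 kb, -0.0547 with equal totals and -0.0219 with equal sums. For genes above 0 it was -0.0391, and it became -0.0006 in windows of 5.0 kb, -0.0059 over whole genes, -0.0815 at a rule of 1000 bp, and was reversed to 0.035 with equal totals and 0.0144 with equal sums. Crossed regions of the 2281 kind numbered 1346 under the common score minimum and 1084 with peaks merged within 500 bp, and those of the 5088 kind 1560 and 2610.

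Relative to all genes, list medians changed side for ethanol and acetate metabolism (-104.5 bp) and housekeeping genes (-105 bp) in windows of 5.0 kb. In windows of 1.0 kb they did so for immediate early genes (34.0 bp), genes of other tissues (41.0 bp) and endothelial and mural markers (66.0 bp). The glutamate list was at 100.4 bp with equal totals, 115 bp with unshared windows and 40.4 bp with equal sums, GABA signalling at -480.5 bp over whole genes, housekeeping genes at -58.0 bp in lists of equal length and -175 bp under the common score minimum, and oligodendrocyte lineage markers at -40.0 bp under that minimum.

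Of the named genes, the following changed sign. Under the common score minimum these were Tlnrd1 (-370 bp), Tsc22d3 (409 bp), Scd2 (12 bp), Gpx4 (-1082 bp), Lef1 (29 bp), S100b (1210 bp), Sox10 (-781 bp), Mag (-505 bp), Foxj1 (2029 bp), Gpr37l1 (-665 bp) and Hspa2 (-273 bp). With equal totals they were Hdac10 (327.6 bp), Hdac5 (344.9 bp), Hspa1b (28.0 bp), Gstm1 (205.1 bp), Rps18 (168.4 bp), Foxj1 (202.1 bp), Sox8 (588.2 bp) and Kat6b (6.1 bp). In windows of 1.0 kb they were Hdac5 (90 bp), Kcnd3 (3 bp), Gstm1 (233 bp), Slit3 (11 bp), Polr2a (16 bp), Gpr37l1 (-118 bp) and Nrxn2 (-31 bp). In windows of 5.0 kb they were Gabbr2 (-627 bp), Klf9 (-39 bp), Errfi1 (89 bp), Sdhb (434 bp) and Aif1 (-894 bp). Over whole genes they were Gabbr2 (-23801 bp), Rab7 (-688 bp), Prox1 (-1654 bp), Aif1 (-80 bp), Opalin (244 bp), Csnk1e (-1205 bp), Shank2 (-13973 bp), Syn3 (-1805 bp), Kcna2 (-1026 bp) and Nrxn2 (-2098 bp), and in lists of equal length Tsc22d3 (135 bp). The cause of these changes was not tested.

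No paired analysis was possible because each group has 1 list, and leaving out a replicate was not run as the lists hold no replicate values. The unknown depth of the lists limits every value here. Peak cover records where a threshold was passed and not how much signal was there.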
